A study of Arabidopsis thaliana with 4 samples.

Results

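The nuclear photosynthesis genes described here are 32 Arabidopsis thaliana genes, taken by locus identifier: 18 light-harvesting genes (LHCA and LHCB), 4 genes of the Rubisco small subunit (RBCS), RCA, CA1, 6 genes of photosystem I subunits and 2 PSBO genes. They are 32 of 27444 protein-coding genes on the nuclear chromosomes. The data are peak lists from chromatin immunoprecipitation followed by sequencing (ChIP-seq) with an anti-MYC antibody, on seedlings that overexpress RVE5-MYC, the clock-related MYB-like factor REVEILLE5 with a MYC tag. There were 3 ChIP replicates, with 1 list each, and 1 input DNA library of the same genotype and treatment, for which no list was analysed. All seedlings were 14 days old, were raised at 22 °C in days of 16 h light and 8 h dark, and were collected at zeitgeber time 12 h after 12 h at 29 °C. The labels name neither the promoter of the transgene nor the number of lines, and do not say whether the replicates came from separate plants. There were no seedlings without the tag and no second condition, so signal that the antibody gives without RVE5-MYC cannot be told apart from binding, and no change in binding was measured.

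Light-harvesting proteins bind chlorophyll and pass excitation energy to the photosystems: LHCA proteins serve photosystem I, and LHCB1, LHCB2 and LHCB3 form the major antenna of photosystem II. The RBCS genes encode the small subunit of Rubisco, the enzyme that fixes carbon dioxide, while its large subunit is encoded in the chloroplast. These genes are among the most highly transcribed in leaves, respond to light and follow the circadian clock. CCA1, a relative of RVE5, was first described as a protein that binds the promoter of an LHCB1 gene.

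A gene was counted as having a peak when a peak of a replicate's list overlapped its annotated span with 1000 bp added on both sides. By this rule 9 of the 32 genes had a peak in at least 1 replicate, which is 28.1%, while 7.6% of all protein-coding genes did. These were LHCA3, LHCB1.4, LHCB1.5, LHCB3, LHCB4.1, RBCS1A, RBCS1B, RBCS3B and CA1. The genes differed from list to list. Replicate 1 had peaks at 2 of the genes, LHCA3 and RBCS3B, or 6.25%, beside a background of 3.19% of all protein-coding genes. Replicate 2 had peaks at 4, LHCB3, LHCB4.1, RBCS1A and RBCS1B, or 12.5%, beside 3.86%. Replicate 3 had peaks at 6, LHCA3, LHCB1.4, LHCB1.5, LHCB4.1, RBCS1A and CA1, or 18.75%, beside 4.1%. The mean was 4 ± 2 genes per list (SD, n = 3), and the order of the 3 counts was that of the length of the lists, 676, 827 and 864 peaks. Distinct peaks numbered 2, 5 and 5, an order that differs from that of the genes. In replicate 3 LHCB1.4 and LHCB1.5 shared 1 peak, and in replicate 2 LHCB4.1 had more than 1. The part of list length was not tested. No test was made of these shares, since the genes were chosen with earlier results of the same data known.

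**Figure D1:**
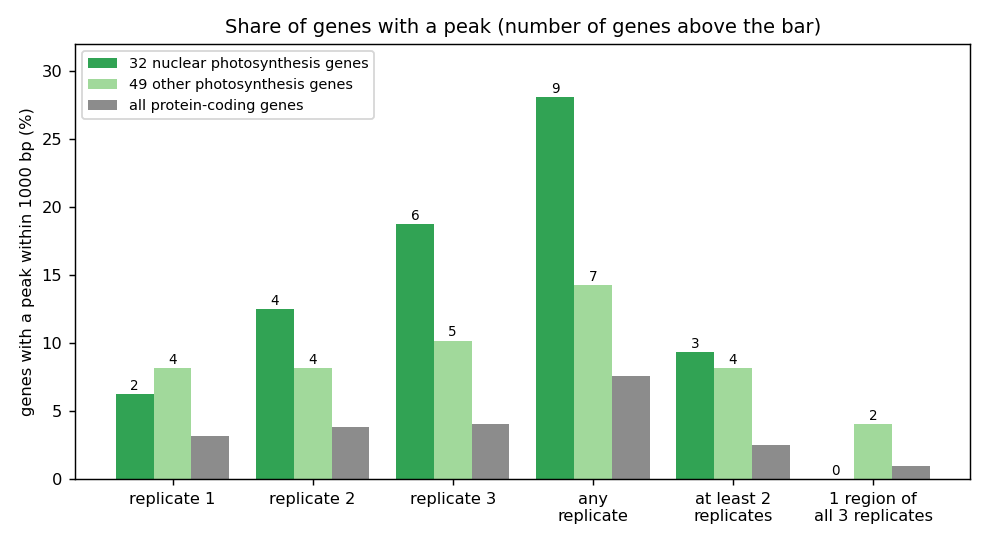
Share of genes (%, vertical axis) with a peak within 1000 bp, by replicate and by how many replicates had one, for the 32 nuclear photosynthesis genes (dark green), 49 other photosynthesis genes (light green) and all protein-coding genes (grey), with the number of genes above each coloured bar. The dark bars reach 28.1% for any replicate and 9.38% for at least 2 replicates, and are at 0 for a region of all 3 replicates.

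Most genes with a peak had it in 1 list only, here as among all protein-coding genes. A peak in at least 2 lists was found at 3 of the 32 genes, LHCA3, LHCB4.1 and RBCS1A (9.38%, beside 2.54% of all protein-coding genes). At LHCB4.1 the peaks of the lists did not overlap, so that 2 genes (6.25%, beside 2.45%) had 1 region with peaks of 2 replicates. No gene of the 32 had a region with peaks of all 3 replicates, beside 0.987% of all protein-coding genes. A count of 0 among 32 genes does not show a share below that. Among genes with any peak, those with peaks in at least 2 lists made up 33.3% of the 9 photosynthesis genes and 33.4% of all 2086 protein-coding genes. Genes with 1 region of at least 2 replicates made up 22.2% of the 9 and 32.2% of the 2086. Genes with a region of all 3 replicates made up 0 of the 9 and 13.0% of the 2086. The shares of the 9 rest on 3, 2 and 0 genes. Of the 3 genes found in 2 lists, LHCB4.1 and RBCS1A had no peak in replicate 1 and LHCA3 had none in replicate 2. All 3 had a peak in replicate 3, and without that list no gene of the 32 had a peak in at least 2 lists, beside 1.527% of all protein-coding genes.

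**Figure D2:**
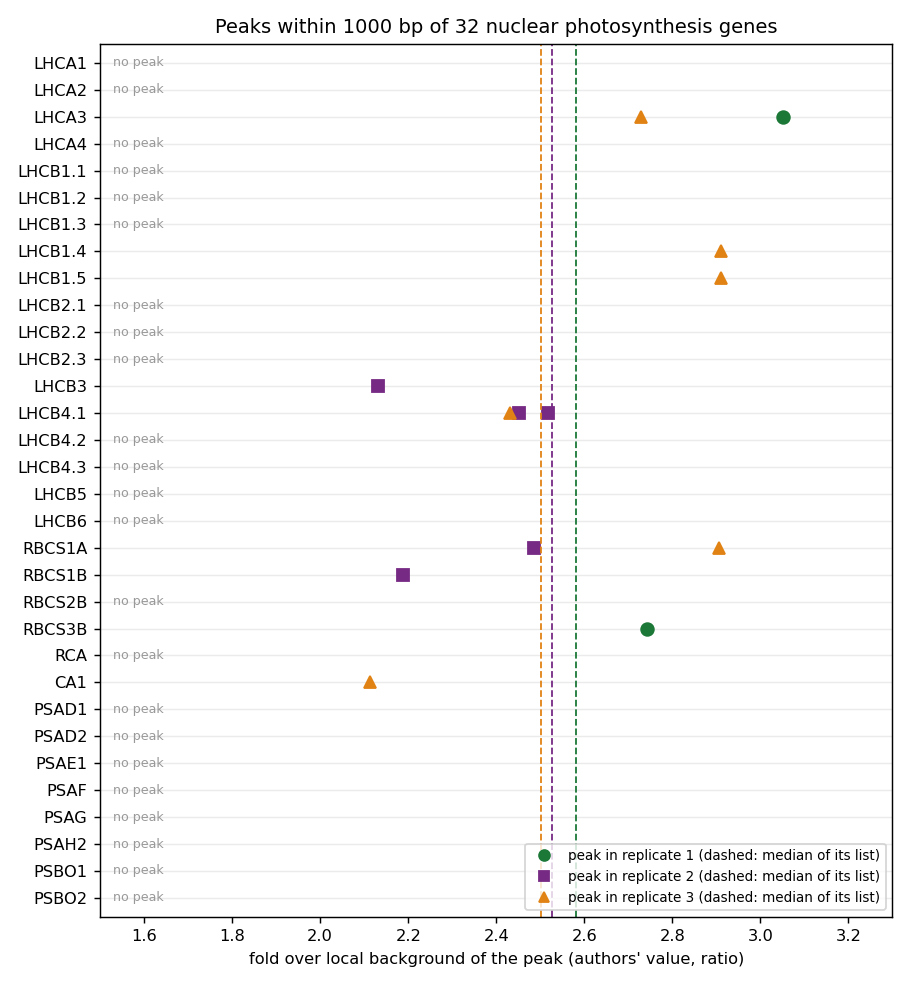
Fold enrichment of every peak within 1000 bp of the 32 genes (rows). The horizontal axis gives the authors' ratio, taken here as over the local background. Circles, squares and triangles mark replicates 1, 2 and 3, and dashed lines the median fold of each list. Folds lie between 2.11 and 3.05; the marks at LHCB1.4 and LHCB1.5 are 1 and the same peak.

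Among the 4 LHCA genes, which encode the antenna of photosystem I, only LHCA3 (AT1G61520) had a peak. In replicate 1 the peak lay on chromosome 1 from 22701987 to 22702370, with a fold of 3.05 and a pileup of 44 at the summit, taken here as reads. In replicate 3 it lay from 22701945 to 22702289, with a fold of 2.73 and a pileup of 46 reads. The peaks shared 303 bp, their summits were 197 bp apart, and the mean fold of these called peaks alone was 2.89 ± 0.228 (SD, n = 2). Both summits lay beside the gene, 796 and 599 bp from its end of higher coordinate. In both replicates the nearest protein-coding gene to the summit was AT1G61540, at 290 and 487 bp, so that LHCA3 was reached only through the added 1000 bp. Replicate 2 had no peak there, and its nearest summit was 97510 bp from that of replicate 1. The nearest peak in any list was 7898 bp from LHCA4, 37804 bp from LHCA2 and 43080 bp from LHCA1.

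The major antenna of photosystem II is encoded by 5 LHCB1, 3 LHCB2 genes and LHCB3. Of the LHCB1 genes, the neighbours LHCB1.4 (AT2G34430) and LHCB1.5 (AT2G34420) on chromosome 2 were counted through 1 peak of replicate 3, from 14524455 to 14524682, with a fold of 2.91 and a pileup of 48 reads. Its summit was 5 bp outside LHCB1.4 and 1034 bp outside LHCB1.5, in the 1038 bp between the genes, and the nearest peak of the other lists was 49259 bp from LHCB1.4. The neighbouring genes LHCB1.1, LHCB1.2 and LHCB1.3 on chromosome 1 had no peak, with the nearest at 44147 bp or farther. None of the 3 LHCB2 genes had one, with distances of 80703 to 380086 bp. LHCB3 (AT5G54270) had a peak in replicate 2 alone, on chromosome 5 from 22038081 to 22038342, with a fold of 2.13 and a pileup of 35 reads. Its summit was inside the gene, 58 bp from the end of lower coordinate.

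Of the 5 genes of the minor antenna proteins, which link the major antenna to the core of photosystem II, LHCB4.1 (AT5G01530) had 3 peaks and the others had none. In replicate 2 a peak on chromosome 5 from 208537 to 208871 had a fold of 2.52 and its summit 74 bp outside the end of lower coordinate. A further peak of replicate 2, from 209907 to 210285, had a fold of 2.45 and its summit inside the gene, 474 bp from the other end. The peak of replicate 3, from 210368 to 210847, had a fold of 2.43 and its summit inside the gene, 55 bp from that end. LHCB4.1 thus had signal called at both ends of its span, and no position within it was called in more than 1 replicate. The nearest summits of replicates 2 and 3 were 419 bp apart. The nearest peak in any list was 2251 bp from LHCB6, 8008 bp from LHCB4.2, 10208 bp from LHCB4.3 and 22254 bp from LHCB5.

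Of the RBCS genes 3 of 4 had a peak, and RBCS1A (AT1G67090), which lies on chromosome 1 apart from the others, had it in 2 replicates. In replicate 2 the peak ran from 25047564 to 25048687, with a fold of 2.49 and a pileup of 37 reads, and its summit lay 259 bp outside the gene. In replicate 3 it ran from 25047951 to 25048726, with a fold of 2.91 and a pileup of 46 reads, and its summit was 64 bp inside the same end. The peaks shared 737 bp, the larger of the 2 overlaps between replicates at the 32 genes. The mean fold of these called peaks alone was 2.70 ± 0.297 (SD, n = 2). They were also wide. At 1124 bp the peak of replicate 2 was the third widest of 827, where the median was 282 bp, and at 776 bp that of replicate 3 ranked 13 of 864, where the median was 293 bp. Among polyubiquitin genes, named after their values were seen, the UBQ11 peaks were 884 bp (rank 6 of 676) in replicate 1 and 718 bp (rank 16 of 827) in replicate 2. UBQ10 had a peak of 1220 bp in replicate 1 (rank 2 of 676) but narrower ones in the other lists, of 231 and 212 bp in replicate 2 and of 316 and 233 bp in replicate 3.

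RBCS1B, RBCS2B and RBCS3B are consecutive protein-coding genes on chromosome 5. RBCS3B (AT5G38410) had a peak in replicate 1 alone, from 15376977 to 15377211, with a fold of 2.74 and a pileup of 36 reads, and with its summit 77 bp inside the end of lower coordinate. RBCS1B (AT5G38430) had a peak in replicate 2 alone, from 15383570 to 15383864, with a fold of 2.19 and a pileup of 30 reads, and with its summit 439 bp inside that end. In replicate 3 the nearest peak to any of the 3 genes was 327671 bp away. RBCS2B, between them, had no peak within 1000 bp. The RBCS and the LHCB1 genes are families of closely related coding sequence, a background fact that was not measured here, and no label or header states where reads that match several copies were placed. For the RBCS1A, RBCS1B and RBCS3B peaks, which overlap the genes, reads from another copy were not tested. The summit at LHCB1.4 lies 5 bp outside the gene, but the peak reaches into it, and reads from another copy were not tested there either. Nor were such reads tested at the UBQ10 and UBQ11 peaks.

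RCA, the activase that frees Rubisco of inhibitory sugar phosphates, had no peak, with the nearest 8780 bp away. CA1 (AT3G01500), a carbonic anhydrase of the chloroplast, had a peak in replicate 3 alone, on chromosome 3 from 194288 to 194633, with a pileup of 39 reads and its summit 116 bp inside the gene. Its fold of 2.11 was the lowest of the 12 peaks. None of the 6 photosystem I genes PSAD1, PSAD2, PSAE1, PSAF, PSAG and PSAH2 had a peak, and their nearest peaks were 11557 to 95337 bp away. Of the PSBO genes, which encode the protein that stabilises the manganese cluster where water is split, neither had a peak by the rule.

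PSBO1 (AT5G66570) was just outside the threshold of 1000 bp. A region of all 3 replicates lay 1764, 1956 and 1633 bp from it in replicates 1, 2 and 3, with folds of 2.36, 2.46 and 2.48, or 2.43 ± 0.0655 (SD, n = 3). Its summits were inside another gene, AT5G66580. RBCS2B was the other gene within 2000 bp, with the RBCS1B peak of replicate 2 at 1499 bp. Just inside the threshold were LHCB1.5, whose peak edge was 887 bp away, and LHCA3, at 575 bp in replicate 1 and 533 bp in replicate 3. With 2000 bp added to the spans, 11 of the 32 genes had a peak in any replicate, beside 10.04% of all protein-coding genes, and PSBO1 was then the 1 gene with a region of all 3. Over the 23 genes without a peak the median distance to the nearest peak of any list was 31331 bp.

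**Figure D3:**
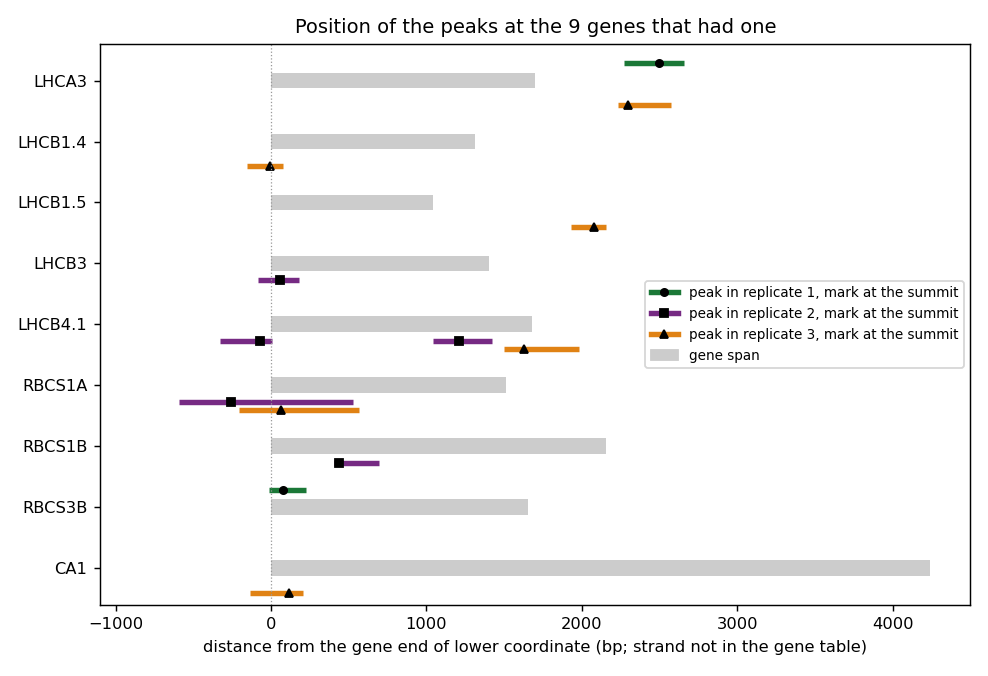
Peaks at the 9 genes that had one, drawn as distance in bp from the gene end of lower coordinate (horizontal axis), with the gene span in grey, the peaks of replicates 1, 2 and 3 in green, purple and orange and a mark at each summit. Summits within 116 bp of a gene end are seen at LHCB1.4, LHCB3, LHCB4.1, RBCS1A, RBCS3B and CA1, and those at LHCA3 lie 599 and 796 bp outside the gene.

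Counted once each, 12 peaks lay at the 9 genes. Their summits were inside the gene in 7 cases (58.3%) and beside it in 5 (41.7%). By replicate the summits inside were 1 of 2, 3 of 5 and 3 of 5. Of the 2083 peaks that reached any protein-coding gene by the same rule, 44.2% had the summit inside one. The summits of LHCB3, RBCS1B, RBCS3B and CA1 were inside, those of LHCA3 and of the LHCB1 pair beside, and LHCB4.1 and RBCS1A had both kinds. Many lay close to an end of the gene: 6 of the 12 summits (50%) were within 100 bp of one, inside or outside, and the median distance was 96.5 bp. Over the 2083 peaks 28.9% were within 100 bp of an end of a gene they reached, with a median of 207 bp. Within 150 bp the shares were 58.3% and 40.7%. The 32 genes are shorter, with a median span of 1478.5 bp against 2078 bp, and the part of span length in this difference was not tested. The gene table gives no strand, so the start and the end of transcription were not told apart, and this distance was chosen after the values were seen.

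The peaks at these genes were of ordinary strength in their lists. Their folds ran from 2.11 to 3.05 with a median of 2.502, where the median of all 2367 peaks was 2.53 and the lists reached 7.84, 8.31 and 8.21. In all, 5 of the 12 had a fold above the median of their own list, and 7 did not. Both peaks of replicate 1 were above it, at ranks 140 (LHCA3) and 257 (RBCS3B) of 676. All 5 of replicate 2 were below it, from rank 420 (LHCB4.1) to 735 (LHCB3) of 827. In replicate 3 LHCB1.4 (178), RBCS1A (179) and LHCA3 (263) were above and LHCB4.1 (504) and CA1 (784) below, of 864. Among peaks of the better 50% of the lists by p-value, 5 of the 32 genes had a peak in any replicate, beside 3.76% of all protein-coding genes, and LHCA3 alone had it in at least 2, beside 1.43%. The pileups ran from 30 to 48 reads. Taken as unscaled counts, the lowest and highest have exact 95% Poisson intervals of 20.2 to 42.8 and 35.4 to 63.6, for counting error only. These intervals overlap. The lists start at folds of 1.527, 1.608 and 1.525, and at the authors' −log10 p of 4.005, 4.012 and 4.059. Their threshold is not given. A gene without a peak is one where no signal passed that threshold, not one without signal.

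**Figure D4:**
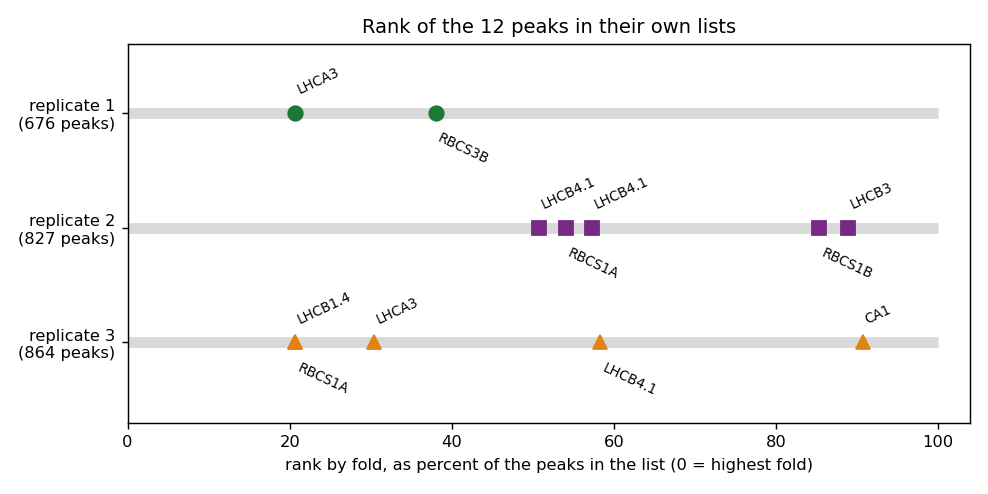
Rank of the 12 peaks in their own lists by fold, as a percentage of the list (horizontal axis, 0 for the highest fold), with replicates as rows and the gene beside each mark. No peak ranks in the upper 20% of its list, and the 5 of replicate 2 all rank beyond 50%.

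Of 49 other nuclear genes of photosynthesis, 7 had a peak in any replicate (14.3%, beside 7.6% of all protein-coding genes). A peak in at least 2 replicates was found at 4 (8.16%, beside 2.54%), and a region of all 3 at 2 (4.08%, beside 0.987%). By replicate the genes with a peak numbered 4, 4 and 5, or 8.16%, 8.16% and 10.2%, beside 3.19%, 3.86% and 4.1%. The highest folds were those of PORB (AT4G27440), which encodes a light-dependent enzyme of chlorophyll synthesis. On chromosome 4 its peaks had folds of 3.62, 4.01 and 3.58 in replicates 1, 2 and 3, with pileups of 54, 65 and 59 reads. Each lay above every peak of the 32 genes, which reached 3.05, 2.52 and 2.91 in the same lists. All 3 summits were beside the gene, 69, 52 and 49 bp from its end of lower coordinate, and ranked 54, 35 and 63 in their lists.

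FD1 (AT1G10960), which encodes a ferredoxin, an electron carrier after photosystem I, also had a region of all 3 replicates, on chromosome 1. Its folds were 1.96, 2.08 and 2.52, and in replicate 1 it ranked 669 of 676. The summits of replicates 1 and 2 were inside FD1. That of replicate 3 lay 111 bp outside it, inside the neighbouring gene TMN1. The further ferredoxin gene FD2 (AT1G60950) had folds of 1.97 and 2.61 in replicates 2 and 3, with both summits inside the gene. PSBY (AT1G67740), a small subunit of photosystem II, had folds of 2.54 and 2.90 in replicates 1 and 2, with summits inside the neighbouring gene KCR1. The plastocyanin genes PETE1 and PETE2 and the transketolase gene TKL1 had peaks in 1 replicate. Of the 14 peaks at these 7 genes the summit was inside the gene in 5, and 8 were within 100 bp of a gene end.

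Polyubiquitin and catalase genes, also known for high transcription, are small sets. Of 5 polyubiquitin genes 2 had a peak in any replicate (40%), and 1, UBQ10, had a region of all 3 (20%). Of 3 catalase genes 2 had a peak (66.7%), and 1, CAT3, had a region of all 3 (33.3%). The other, CAT1, was counted only through peaks of replicates 2 and 3 with summits between CAT1 and CAT3, which also counted for CAT3. These shares lie above the 28.1% and 0 of the 32 photosynthesis genes and above the 7.6% and 0.987% of all protein-coding genes, but rest on 1 or 2 genes each. The difference between these families and the 32 photosynthesis genes was not tested, and transcription was not measured in these samples, so its part in the result was not tested.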

How the data were processed

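The members and lists were chosen with earlier results of these data known. The peak lists of the 3 ChIP replicates were used as deposited; the submitters' processing notes name CASAVA 1.4 and the build TAIR10. Alignment, peak calling, the threshold and any use of the input are not given in the sources. Per the file headers, each deposited list gives the position of a peak, its summit, a pileup, a fold enrichment, and the −log10 of a p-value and q-value. The headers state neither the unit of the pileup nor the denominator of the fold. Here the pileup was taken as reads at the summit and the fold as a ratio over a local background. Folds and p-values served to describe, rank and filter peaks within 1 list. Folds were also averaged over replicates and pooled over the lists for medians, without scaling between lists. Library totals are unknown.

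Gene spans came from RefSeq genes on TAIR10.1, and all 32 identifiers and symbols matched. The builds carry different names and were joined by chromosome name, so distances rest on equal nuclear coordinates. Gene coordinates are not printed, and peak coordinates are 1-based on TAIR10. Peaks of different lists sharing at least 1 bp were merged into regions. A summit is inside when it lies in the gene span. No test was run, since there is 1 ChIP group and the genes were chosen with results known. All genes with a peak are named, and of the 49 other photosynthesis genes those with peaks in at least 2 replicates, at most 10. Outside that rule, PETE1, PETE2, TKL1, UBQ10, UBQ11, CAT1 and CAT3 were named after their values were seen. Counting was tested on simulated data. Python 3.11.15, pandas 2.3.3 and SciPy 1.17.1 were used. No sequence was used, so the planned promoter motif counts were not run.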

Additional observations from a re-analysis of the deposited data

How the results depend on the processing

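Of 62 values under other settings, 46 stayed within 1.5 times the reported count or within 1 SD of the replicates, and 16 did not. Some of the 46 could not move. The count of 0 genes with a region of all 3 replicates had to stay 0 where a setting only removed peaks or flank. Shares of all protein-coding genes under the same setting follow in brackets. The count in replicate 1 was 1 with no flank (1.57%), with a flank of 500 bp (2.60%) and with the nearest gene only (2.08%), where LHCA3 is lost. Keeping 50% of every list, by p-value, gave 0 genes in replicate 2 (2.04%), 5 in any replicate (3.76%) and 1 in at least 2 replicates (1.43%), and 40% of the summits inside the gene. A fold of at least 2.5 gave 1 gene in replicate 2 (2.102%) and 1 in at least 2 replicates (1.41%). A flank of 2000 bp gave 1 gene, PSBO1, with a region of all 3 replicates (1.29%). With 100 bp added to the gene spans, 75% of the summits were inside. Leaving out 1 replicate gave 6 to 8 genes with a peak in any replicate (5.52% to 6.37%), 0 to 2 in at least 2 replicates (1.44% to 1.58%), 0 to 1 with a region in both remaining lists (1.41% to 1.52%), 57.1% to 60% of summits inside, and a median fold of 2.47 to 2.74. For these 16 values the cause was not tested, beyond the different peaks, spans or lists that each setting uses. Motif alternatives were not run for want of sequence. No paired analysis was possible because the ChIP replicates form 1 group and the input had no list here. With pileups of 30 to 48 reads and no library totals, absence from a list does not show absence of signal.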
